A study of Arabidopsis thaliana with 6 samples.

Results

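GRP7 (AT2G21660), GRP8 (AT4G39260), PTB1 (AT3G01150), PTB2 (AT5G53180) and PTB3 (AT1G43190) encode RNA-binding proteins of Arabidopsis thaliana, most of which are known for controlling the splicing of their own transcripts. They were taken by locus under a rule that uses no measured value, although earlier results of these data were known. They make up 5 of the 37869 genes and 40 of the 76209 transcripts in the deposited tables. RNA came from shoots of seedlings aged 3 weeks, of ecotype Col-0, grown in vitro on sucrose medium in long days without stress. There were 3 wild-type libraries and 3 libraries of sme1-1, which the mutant labels write smeb-1, a line deficient in the spliceosomal core protein SmE (SME1, AT2G18740). The sources used here do not say how the allele was made or at what hour shoots were harvested. The comparison asks how shoots deficient in an Sm ring protein differ from wild type when no stress is given.

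GRP7 and GRP8 are closely related small proteins with an RNA recognition motif and a glycine-rich tail. Their transcripts oscillate over the day under the circadian clock, and GRP7 is also known from flowering time, cold and immunity. Each protein binds its own and the other's pre-mRNA and favours an alternative 5' splice site inside the intron, which gives a transcript with an early stop codon that nonsense-mediated decay removes. PTB1 and PTB2 are polypyrimidine tract-binding proteins that bind pyrimidine-rich RNA and shift exon inclusion, and they limit themselves and each other through an included exon that carries a stop codon. PTB3 is a more distant relative in the same family.

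The sequences at the introns and exons followed here are shown first, because the intron and exon outcomes below count transcripts that use or skip them. They were read from the RefSeq sequence of TAIR10.1, whose letters fitted the deposited introns, and are written along the transcribed strand. In the first 4, the last bases of the upstream exon are followed by the start of the intron, whose first 2 bases are in capitals. In both genes the full intron is the longer one, and the alternative site lies inside it, 166 bases downstream of the full site in GRP7 and 158 bases downstream in GRP8. Over the 11 intron bases shown, GRP7 and GRP8 had the same letters at 11 positions at the full site and at 11 at the alternative site. Over the 9 exon bases shown, 8 were the same at the full site and 5 at the alternative site.
GRP7 full site, chr2:9266192-9266211, minus strand: gattccaagGTctgttacac
GRP7 alternative site, chr2:9266026-9266045, minus strand: cccaaatcgGTacgttcatc
GRP8 full site, chr4:18274840-18274859, minus strand: gattctaagGTctgttacac
GRP8 alternative site, chr4:18274682-18274701, minus strand: gtcccatcgGTacgttcatc

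When the intron is kept, or cut from the alternative site, the reading frame runs into it and stops. The next sequences start with the last 12 bases of the first coding exon and end at that in-frame stop codon, in capitals. The stop came after 48 codons in GRP7 and after 51 codons in GRP8, and in both genes it lay upstream of the alternative site.
GRP7 exon into intron, chr2:9266170-9266214, minus strand: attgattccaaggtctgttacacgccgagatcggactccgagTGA
GRP8 exon into intron, chr4:18274803-18274862, minus strand: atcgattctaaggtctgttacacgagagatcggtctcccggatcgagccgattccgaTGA

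In the PTB genes the stop sits in an included exon or a retained intron. PTB1 has an extra exon of 102 bases. PTB2 has an extra exon of 58 bases, or of 61 bases when a 3' splice site 3 bases upstream is used. In PTB3 the stop lies in an intron kept in assembled transcripts, shown after the last 12 bases of the exon before it. That intron was taken because, among retained PTB3 introns, its kept form held the most TPM in these data. Capitals mark the in-frame stop codon, which came after 137 codons in PTB1, 143 in PTB2 with the shorter exon and 225 in PTB3.
PTB1 included exon, chr3:52645-52746, plus strand: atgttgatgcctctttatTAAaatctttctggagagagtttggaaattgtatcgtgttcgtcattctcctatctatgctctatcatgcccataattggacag
PTB2 included exon, chr5:21570834-21570891, minus strand: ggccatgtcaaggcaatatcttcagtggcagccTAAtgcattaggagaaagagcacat
PTB3 exon into intron, chr1:16276409-16276441, minus strand: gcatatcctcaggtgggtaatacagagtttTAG

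The deposited values are TPM, transcript abundances that are divided by length and sum to 1000000 in every library, so that the depth behind a value is unknown and a zero is only a value listed at 0. SME1 itself averaged 75.4 ± 1.496 TPM in wild type against 32.5 ± 3.28 TPM in the mutant (SD, n = 3 each), with no library against its label (limma adjusted p = 4.36e-05). The labels do not say that libraries of a genotype came from separately grown plants, so p-values cover no more than the variation among libraries, part of which may be technical. Summed over 8 shoot markers, the libraries held 47320 to 52130 TPM in wild type against 44940 to 52170 TPM in sme1. Summed over 8 root markers they held 2.04 to 4.60 TPM in wild type against 25.6 to 51.3 TPM in sme1, and over 4 floral markers 2.34 to 4.29 and 5.13 to 6.45 TPM. The part of root or floral RNA in the results below was not tested. In bulk tissue, fewer cells of a type and less RNA per cell cannot be told apart.

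GRP7 fell strongly in sme1 while GRP8 rose slightly on the deposited scale, so that the order of this pair turned over. GRP7 stood at 779.5, 663.5 and 650.8 TPM in wild type and at 299.1, 309.7 and 363.9 TPM in sme1. The lowest wild-type library was above the highest sme1 library by a wide margin. The means were 697.9 ± 70.9 and 324.2 ± 34.75 TPM (SD, n = 3 each), a 2.15-fold lower level in sme1, with a log2 change of -1.10 (SE 0.10) on the log2(TPM + 1) scale (limma adjusted p = 0.00015 over 20100 genes).

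GRP8 stood at 390.4, 461.8 and 401.2 TPM in wild type and at 518.1, 507 and 487.9 TPM in sme1. All 3 sme1 libraries lay above all 3 wild-type libraries, by a narrower gap than for GRP7. The log2 change was 0.27 (SE 0.08; limma adjusted p = 0.0161). The median gene was higher in sme1 by 0.22, and with libraries rescaled by their median of ratios the GRP8 change was 0.00 (limma adjusted p = 0.979), while quantile normalization left it at 0.27 (limma adjusted p = 0.0198). It also missed the threshold without wild-type library 1 (limma adjusted p = 0.0501) and without wild-type library 3 (limma adjusted p = 0.0536). The change of GRP7 was -1.38 with the median-of-ratios rescaling, and it passed the threshold under every alternative run.

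The ratio of GRP8 to GRP7 does not depend on scaling between libraries. It was 0.501, 0.696 and 0.616 in wild type and 1.73, 1.64 and 1.34 in sme1. GRP7 was the more abundant of the pair in every wild-type library and GRP8 in every sme1 library. The mean ratio was 2.60-fold higher in sme1 (two-sided exact permutation p = 0.1, the smallest that 3 against 3 libraries can give, and 0.125 after adjustment over 5 quantities). The sum of both genes was 1116 ± 59.5 TPM in wild type against 828.6 ± 20.13 TPM in the mutant (SD, n = 3 each). The groups did not overlap (exact permutation p = 0.1, and 0.125 after adjustment).

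PTB1, the splicing regulator with the self-limiting exon, stood at 27.1, 25.3 and 25.8 TPM in wild type against 23.5, 21.5 and 22.7 TPM in sme1. The groups did not overlap, and the mean went from 26.1 ± 0.935 to 22.6 ± 1.02 TPM (SD, n = 3 each). The log2 change was -0.20 (SE 0.06; limma adjusted p = 0.0212). The call was lost without wild-type library 1, sme1 library 2 or sme1 library 3 (limma adjusted p = 0.0616, 0.0622 and 0.0580), and rescaling by the median of ratios gave -0.46 (limma adjusted p = 0.000299).

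PTB2, the close relative of PTB1, stood at 28.6, 27.95 and 25.2 TPM in wild type against 26.4, 24.5 and 26.4 TPM in sme1. These ranges overlapped. The log2 change was -0.08 with a 95% interval from -0.24 to 0.09 (limma adjusted p = 0.357). Relative to the median gene it was -0.29, and PTB2 passed the threshold with libraries rescaled by their median of ratios (-0.34, limma adjusted p = 0.00234) and after quantile normalization (-0.21, limma adjusted p = 0.0143).

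PTB3 had the highest level of the PTB genes in every library. It stood at 58.6, 54.6 and 53.5 TPM in wild type against 52.6, 57.65 and 54.9 TPM in sme1, again with overlap. The log2 change was -0.01 with a 95% interval from -0.16 to 0.13 (limma adjusted p = 0.849), and rescaling by the median of ratios gave -0.28 with an adjusted p of 0.010 from limma. PTB1 and PTB2 stood close together and below PTB3 in both genotypes. The ratio of PTB1 to PTB2 was 0.959 ± 0.0583 in wild type and 0.874 ± 0.0150 in sme1 (SD, n = 3 each), without overlap. Its two-sided exact permutation p was 0.1, the smallest possible, and 0.125 after adjustment over 5 quantities.

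**Figure D1:**
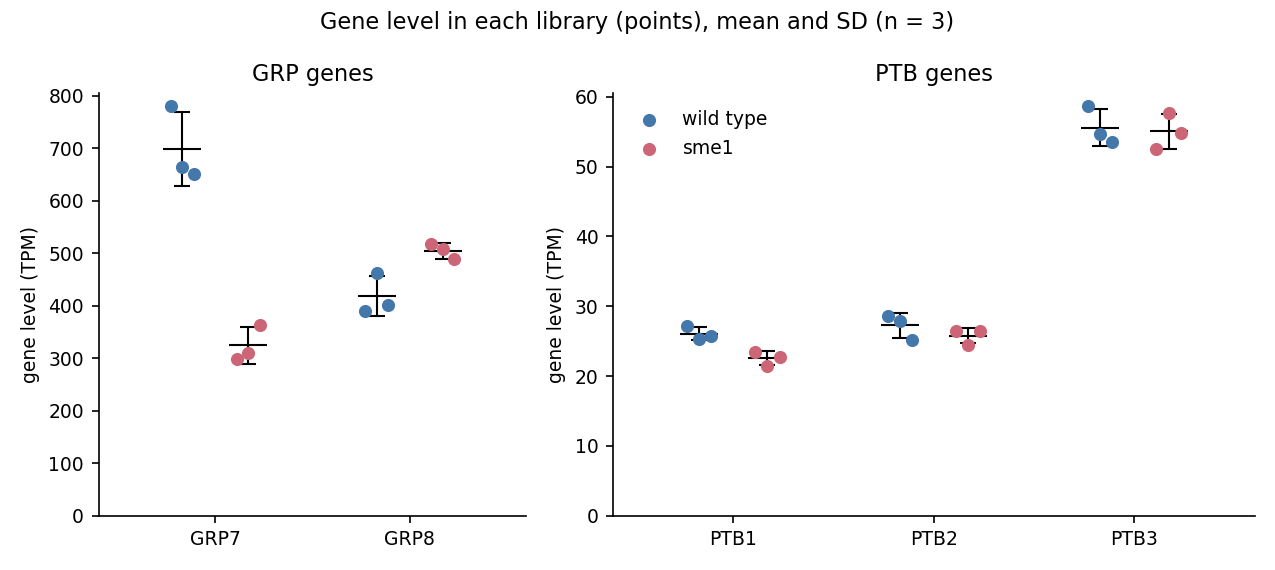
Gene level in TPM for each library (points; blue wild type, red sme1), with the mean and SD of 3 libraries as black bars, for the GRP genes on the left and the PTB genes on the right. GRP7 falls from 697.9 to 324.2 TPM and GRP8 passes above it, while the PTB genes stay within a few TPM of wild type.

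Of the 5 genes, 3 passed the threshold at gene level, GRP8 upward and GRP7 and PTB1 downward. Over all genes tested 67.3% passed, 47.3% higher and 20% lower in sme1, so a count of this size is near the background. By the mean absolute difference of centred log2(TPM + 1) profiles over the 6 libraries, the genes most like GRP7 were SDP1 (0.031) and TTA1 (0.037). They were AT4G02820 and EMB2758 for GRP8 (0.019 each), FASS (0.0098) and AT5G45840 (0.011) for PTB1, VPS45 (0.014) and AT2G47250 (0.015) for PTB2, and LIN2 (0.010) and AT1G67950 (0.013) for PTB3.

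The transcripts of GRP7 and GRP8 differ at 2 places, the intron after the first coding exon and the stretch that codes for glycine further down. Of 14 transcripts of GRP7, 4 held 1% or more of the gene's TPM on average, and of 8 transcripts of GRP8, 4 did; the rest summed to at most 1.69% and 0.898% of the gene in any library. No stretch of 31 bases in either gene was found outside this pair, and 9 such words were shared between them, so reads could be split between the pair over few positions.

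**Figure D2:**
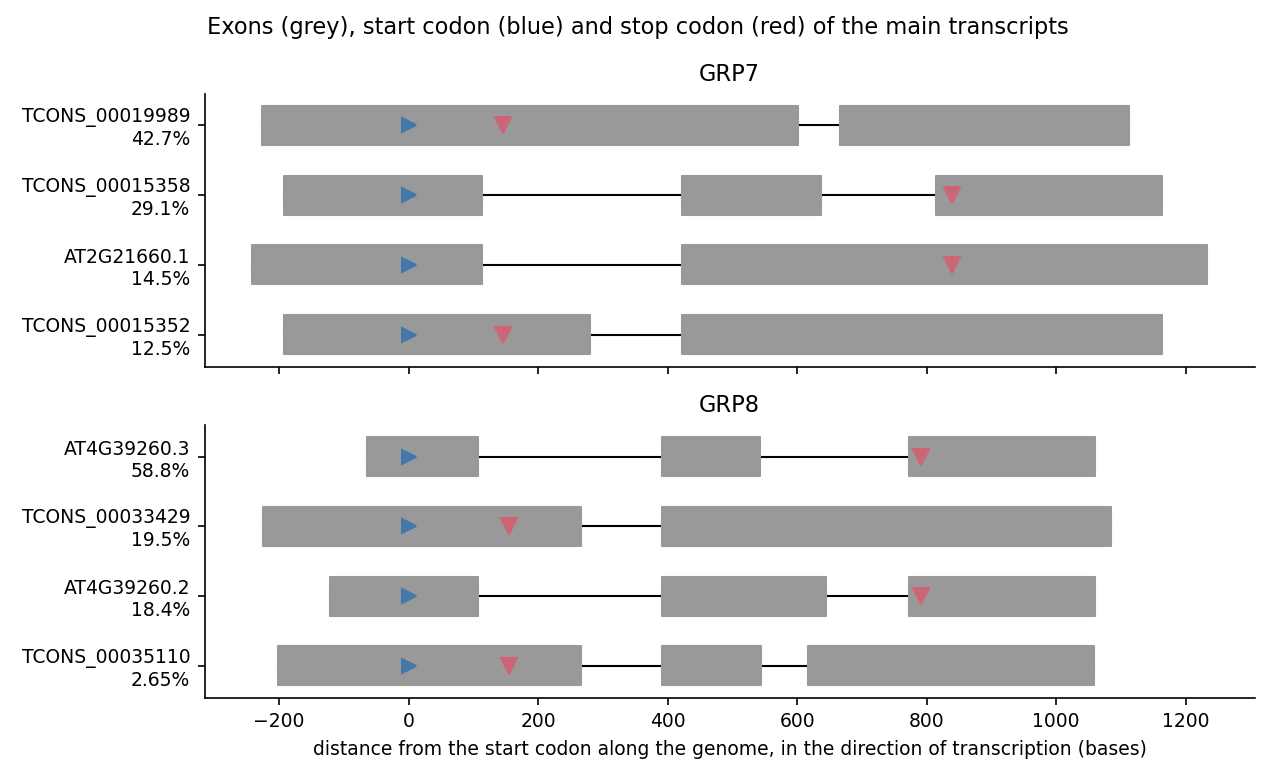
Exons (grey boxes) of the 4 main transcripts of GRP7 and GRP8 against distance in bases from the start codon, with the start codon (blue), the first in-frame stop (red) and the mean share of the gene's TPM over 6 libraries. The early stop at 146 or 155 bases appears where the first intron is kept or cut from the alternative site.

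The GRP7 intron, chr2:9265894-9266202 on the minus strand and 309 bases long, was spliced out in full in a larger share of transcripts in every sme1 library than in any wild-type one. Transcripts with full splicing held 40.6%, 40.05% and 40.4% of GRP7 in wild type and 48.98%, 48.1% and 50.3% in sme1. The wild-type libraries lay close together and all sme1 libraries lay above them, by 8.73 points on average. The retained form held 44.99%, 46.7% and 46.1% in wild type and 39.4%, 41.5% and 37.65% in sme1, all lower. The form cut from the alternative site held 14.4%, 13.3% and 13.4% in wild type and 11.6%, 10.4% and 12.1% in sme1, all lower as well. For each of the 3 outcomes the exact permutation test gave p = 0.1, the smallest it can reach.

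In TPM all 3 forms of GRP7 were lower in sme1. The gene as a whole was lower too, so their separation in TPM largely follows the gene level. The share of all transcripts without overlap is not given. Fully spliced transcripts went from 281.9 ± 30.2 to 159.4 ± 20.35 TPM, retained ones from 320.2 ± 26.8 to 127.8 ± 9.59 TPM and those of the alternative site from 95.9 ± 14.1 to 37.0 ± 6.18 TPM (SD, n = 3 each), with no overlap in any of them. Transcripts with an early stop, defined as a stop more than 50 bases before the last exon junction, made up 59.6% ± 0.295 of GRP7 in wild type and 50.9% ± 1.095 in sme1 (SD, n = 3 each). In GRP7 these are the retained and alternative-site forms, so this share restates the intron outcome and is not a further result. The same holds for GRP8, PTB1 and PTB3 and the outcomes given for them below. The log2 ratio of early-stop to other transcripts changed by -0.51 with a 95% interval from -0.96 to -0.06, which did not pass the threshold over all genes (limma adjusted p = 0.172). The retained form is 1 assembled transcript, TCONS_00019989, and the only junction after its stop is that of a 66-base gap in the glycine-coding exon. If a 3' UTR over 350 bases also counted as an early-stop feature, the unshortened AT2G21660.1 would join that class and the change would be 0.28 (limma adjusted p = 0.614).

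The GRP8 intron lies at chr4:18274568-18274850 on the minus strand and is 283 bases long. Full splicing held 72.4%, 77.6% and 79.9% of GRP8 in wild type and 78.1%, 80.9% and 78.4% in sme1. The groups overlapped (exact permutation p = 0.4), and the difference of 2.48 points was 0.382 points without wild-type library 1. The mean share of the alternative-site form differed by -2.48 points in GRP8, against -2.32 points in GRP7. No GRP8 transcript in the deposited annotation kept the whole intron, so the retained form of GRP7 has no counterpart here. In TPM the fully spliced form went from 320.5 ± 37.7 to 399 ± 14.7 without overlap, while the form of the alternative site, at 97.3 ± 14.6 and 105.3 ± 8.46 TPM (SD, n = 3 each), overlapped between genotypes. The early-stop ratio of GRP8 changed by -0.20 with a 95% interval from -0.77 to 0.37 (limma adjusted p = 0.647).

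The PTB1 exon was included in 38.4%, 39.6% and 33.5% of the gene's TPM in wild type and in 33.5%, 37.4% and 33.3% in sme1. The ranges overlapped (exact permutation p = 0.3). In TPM the exon-containing transcripts went from 9.71 ± 0.940 to 7.82 ± 0.242 without overlap, and the others from 16.4 ± 0.961 to 14.7 ± 1.14 with overlap (SD, n = 3 each). The early-stop ratio of PTB1 changed by -0.15, with a 95% interval from -0.67 to 0.37 (limma adjusted p = 0.704).

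The PTB2 exon was split over several transcripts and varied between wild-type libraries. Transcripts with the 58-base exon held 5.76%, 15.6% and 11.7% in wild type and 11.45%, 14.2% and 11.3% in sme1, and those with the 61-base exon held 10.4%, 7.01% and 17.4% and then 4.48%, 9.32% and 7.94%. Neither separated the genotypes. Full splicing of the surrounding intron held 62.9% ± 7.72 in wild type and 60.8% ± 3.30 in sme1 (SD, n = 3 each), a difference whose sign turned without wild-type library 1. Transcripts that splice before the 58-base exon but keep the intron after it held 11.2%, 11.1% and 11.2% in wild type and 13%, 16.7% and 12.4% in sme1. This was the only outcome at the PTB2 intron in which the genotypes did not overlap (exact permutation p = 0.1, the smallest it can reach). It was singled out after its values were seen, and the share of such outcomes over all genes is not given. PTB2 overlaps AT5G53170 and shares 45 of its 3033 words of 31 bases with it, so reads there may belong to either gene. Read from the start codon of the longest RefSeq protein, a choice made after seeing the data, early-stop transcripts made up 40.4% ± 10.01 and 45.8% ± 3.15 of classified PTB2 (SD, n = 3 each; limma adjusted p = 0.589). The start rule of the main test fell on an internal start codon of PTB2 and gave 74.85% and 77.6% (limma adjusted p = 0.788).

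PTB3, which has no included exon of this kind, kept the 158-base intron at chr1:16276272-16276429 on the minus strand in 9.79%, 13.9% and 12.1% of its TPM in wild type and in 14.85%, 15.8% and 14.2% in sme1. The lowest sme1 library lay just above the highest wild-type library. Its early-stop ratio changed by 0.38 with a 95% interval from -0.17 to 0.93 (limma adjusted p = 0.358). None of the 5 genes passed the early-stop test on that ratio (limma), against 3.24% of the 6292 genes tested, and 1, GRP7, had an unadjusted p under 0.05. The share of all genes at that unadjusted level is not given for this fit.

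**Figure D3:**
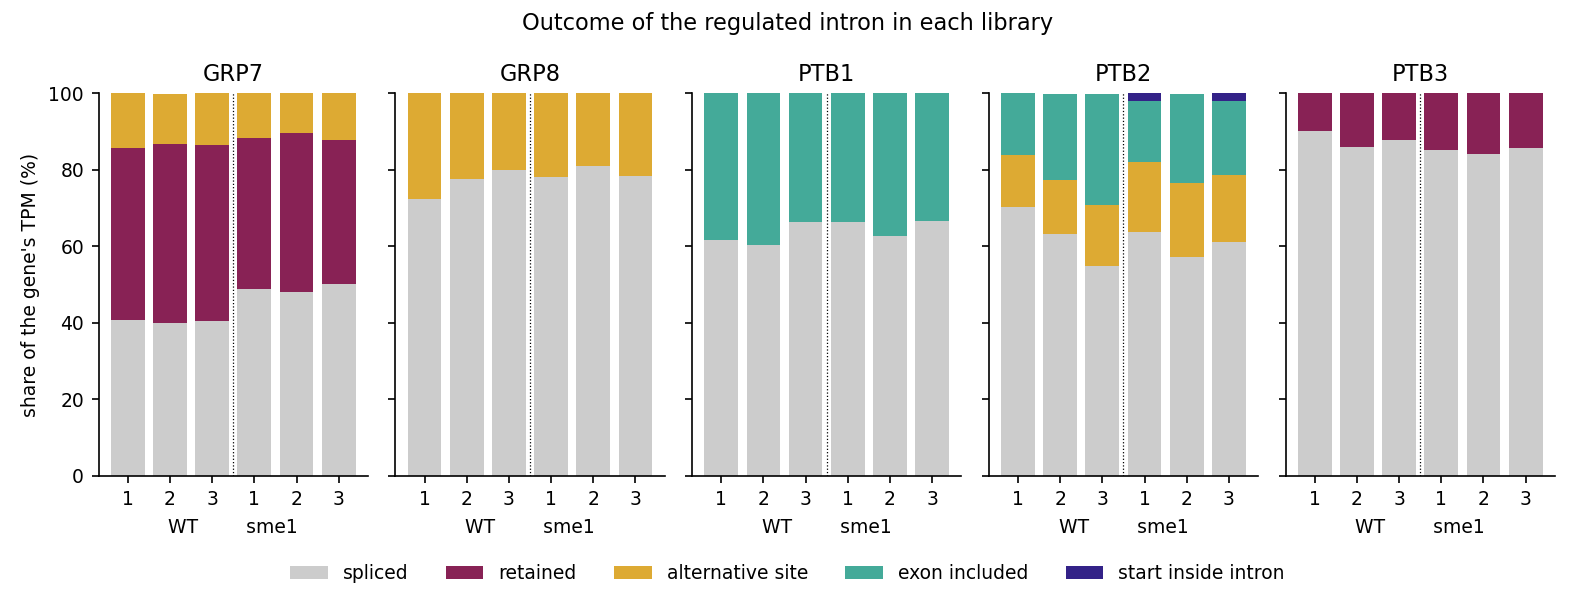
Share of each gene's TPM by outcome of the intron followed in it, with a bar per library, 3 wild-type bars left and 3 sme1 bars right of the dotted line. The PTB3 intron was taken by its retained TPM in these data. In GRP7 the grey fully spliced part is near 40% in the wild-type bars and near 49% in the sme1 bars, while the fully spliced parts of GRP8, PTB1 and PTB2 overlap between genotypes.

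The second place where GRP7 and GRP8 transcripts differ is the exon that codes for the glycine-rich tail. In GRP7, 6 stretches of that exon are absent from one or more of 12 transcripts, and in GRP8 5 stretches are absent from one or more of 6 transcripts, whereas the PTB genes had none. All 6 and all 5 had lengths divisible by 3, from 21 to 177 bases in GRP7 and from 72 to 231 bases in GRP8, so each leaves the reading frame intact. All 6 in GRP7 and 4 of 5 in GRP8 start with GT or GC and finish with AG. The 66-base stretch lacking from the most abundant GRP7 transcript, with its first and last 2 bases in capitals, shows the repeated glycine codons.
GRP7 stretch lacking from TCONS_00019989, chr2:9265650-9265715, minus strand: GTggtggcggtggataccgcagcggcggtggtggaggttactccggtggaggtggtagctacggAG

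Glycine codons, those that start with GG, made up 39.8% of the 176 codons of GRP7, 66.7% of its 78 codons inside these stretches and 18.4% of the others. In GRP8 they made up 38.5% of 169 codons, 56.4% of 94 codons inside and 16.0% outside. The ends of a stretch repeat each other for 5 to 11 bases in GRP7 and 4 to 15 bases in GRP8, so that more than one placement of the gap gives the same spliced sequence. Whether these gaps are introns was not tested.

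Transcripts with such a gap held 73.0%, 79.2% and 82.4% of GRP7 in wild type and 71.7%, 73.1% and 58.8% in sme1, and 79.85% ± 4.62 and 81.2% ± 2.52 of GRP8 (SD, n = 3 each). Both overlapped between genotypes. The unshortened AT2G21660.1, which codes for the whole GRP7 protein, held 12.7%, 7.56% and 4.18% in wild type and 16.7%, 16.5% and 29.1% in sme1. Its share was higher in every sme1 library than in any wild-type one, although the spread within each genotype was wide. The log2 ratio to the rest of the gene changed by 1.66 with a 95% interval from 0.34 to 2.97 (limma adjusted p = 0.181). In TPM it stood at 58.8 ± 36.7 and 69.0 ± 32.0 (SD, n = 3 each) and overlapped, while its shortened counterpart TCONS_00015358 went from 215.9 ± 9.59 to 86.1 ± 13.4 TPM without overlap.

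In GRP8 the main forms without an early stop are both shortened. AT4G39260.2 lacks 129 bases of the glycine-coding exon, and AT4G39260.3 lacks 231. AT4G39260.1, which codes for the whole GRP8 protein, was listed at 0 TPM in every library except sme1 library 3, at 0.289 TPM. Whether reads in this stretch were given to the right form was not tested. AT4G39260.2 held 17.05%, 11.7% and 10.3% in wild type and 18.2%, 22.3% and 31.1% in sme1, without overlap, a change of 1.07 in log2 ratio (limma adjusted p = 0.208). AT4G39260.3, the main form, held 54.5%, 65.5% and 69.4% and then 59.1%, 57.9% and 46.7%, with overlap (limma adjusted p = 0.465). The forms with the whole glycine-coding exon and an early stop went from 13.65% ± 0.588 to 11.4% ± 0.860 in GRP7 (TCONS_00015352, no overlap) and from 20.15% ± 4.62 to 18.8% ± 2.49 in GRP8 (TCONS_00033429, overlap; SD, n = 3 each). Their mean shares were thus lower in sme1, where that of AT2G21660.1 was higher. TCONS_00035110, the smallest of the main GRP8 forms, held 3.22% ± 0.800 and 2.08% ± 1.39 (SD, n = 3 each).

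The most abundant transcript of each PTB gene did not separate the genotypes. AT3G01150.1 of PTB1, which skips the extra exon, held 61.6%, 60.4% and 66.5% in wild type and 66.5%, 62.6% and 66.7% in sme1. AT5G53180.1 of PTB2 held 68.9%, 60.8% and 49.0% in wild type and 56.7%, 52.4% and 51.2% in sme1. AT1G43190.1 of PTB3 held 53.3%, 62.5% and 58.98% in wild type and 50.2%, 64.3% and 43.2% in sme1. The genotypes overlapped in each of the 3 (limma adjusted p = 0.763, 0.603 and 0.672). Next in PTB3 was AT1G43190.2, which uses another 5' splice site in the first intron, at 35.7%, 18.55% and 22.3% in wild type and 32.1%, 16.1% and 41.2% in sme1. The other PTB transcripts of 1% or more, AT3G01150.2, AT3G01150.4, AT5G53180.2 to AT5G53180.5, TCONS_00044470, TCONS_00045274, TCONS_00045276, AT1G43190.3, TCONS_00004943 and TCONS_00004945, had mean shares over the 6 libraries from 2.55% (AT5G53180.5) to 21.75% (AT3G01150.2).

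Of the 24 transcripts of the 5 genes that held between 1% and 99% of their gene and were tested, none passed (limma), against 1.21% of 37543 over all genes. An unadjusted p under 0.05 was seen for 3 of them, AT2G21660.1, AT4G39260.2 and TCONS_00045274. The share of all transcripts at that level is not given for this fit, so nothing is read from this count. TCONS_00045274, singled out after its value was seen, is an assembled PTB2 transcript that keeps the intron after the extra exon and has an early stop. It held 4.97%, 5.60% and 3.31% in wild type and 8.12%, 11.8% and 12.4% in sme1. Its share was higher in all sme1 libraries and gave the lowest adjusted p of the 24 (limma adjusted p = 0.124). TCONS_00044470, an early-stop form that keeps the same intron, went the other way without overlap. It held 6.26%, 5.50% and 7.90% in wild type and 4.89%, 4.87% and 8.44e-07% in sme1 (limma adjusted p = 0.433). The low sme1 mean thus came largely from sme1 library 3. Together these forms held 11.2% in wild type and 14.0% in sme1, and as an event keeping that intron had a limma adjusted p of 0.468.

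**Figure D4:**
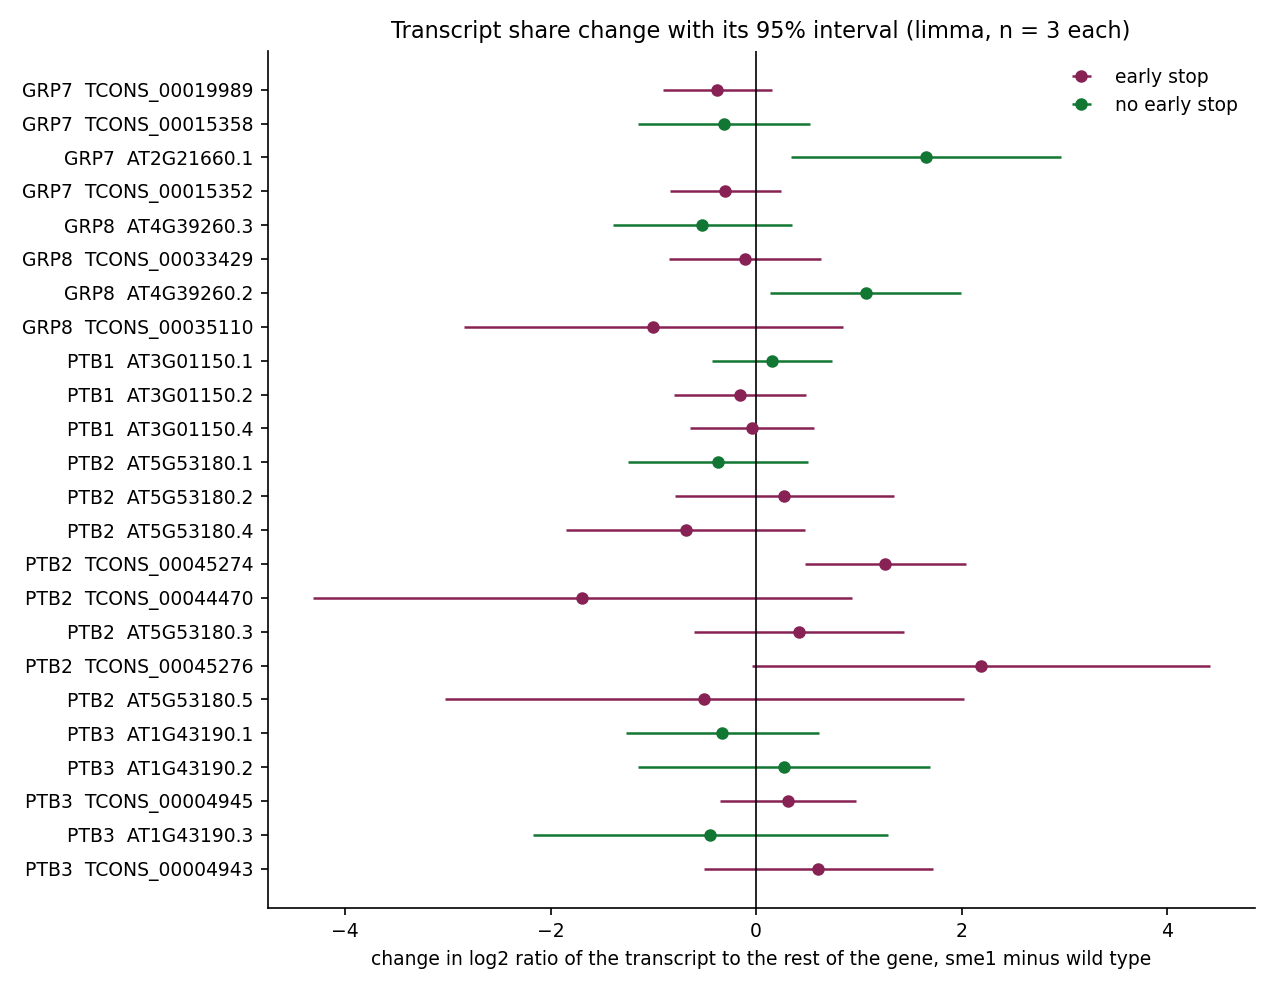
Change in the log2 ratio of each tested transcript to the rest of its gene, sme1 minus wild type, with 95% intervals from limma; purple marks an early stop and green none, read from the start codon of the longest protein. The intervals of AT2G21660.1, AT4G39260.2 and TCONS_00045274 leave out 0, and none of the 24 passed the adjusted threshold.

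Splicing events compare transcripts with an event only with those that hold its exact alternative, so their shares are not shares of the gene. Of 42 events in the 5 genes 30 could be tested, and none passed (limma). Over all genes 3.2% of retained introns, 2.05% of alternative 5' sites, 0.535% of alternative 3' sites and 1.88% of skipped exons passed. An unadjusted p under 0.05 was seen for 4 events, all in GRP7 and GRP8. One of them was the alternative 5' site of GRP7, at 25.3% of its event in wild type and 18.8% in sme1 (limma adjusted p = 0.224). This event sets the alternative-site form against full splicing, both given above, so it is not a separate result. Keeping the 66-base stretch of GRP7 went from 32.0% to 44.4% (limma adjusted p = 0.195). Transcripts lacking that stretch held 45.96% of GRP7 in wild type, and TCONS_00019989 alone held 45.93%. TCONS_00019989 is also the only form that keeps the whole GRP7 intron, so this event and the retained share are not separate results. In GRP8, keeping the 129-base stretch went from 64.5% to 47.3%, with the lowest adjusted p of the 30 (limma adjusted p = 0.0962), and the 5' site that removes 129 rather than 231 bases went from 17.3% to 30.45% (limma adjusted p = 0.224). Both GRP8 events turn on AT4G39260.2, so they are not separate results. Nearly all TPM of the forms that keep the 129-base stretch belonged to TCONS_00033429 and TCONS_00035110, which have an early stop. That event therefore does not show the stretch kept or lost among forms without an early stop. The share of all events at an unadjusted p under 0.05 is not given for this fit, so nothing is read from the count of 4.

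A test per gene asks whether any transcript's log2 change departs from the rest of its gene. GRP7 passed it (limma diffSplice adjusted p = 0.0376), and GRP8 (0.216), PTB1 (0.687), PTB2 (0.0611) and PTB3 (0.660) did not, so 1 of 5 passed against 23.2% of 9382 genes. The call for GRP7 was lost without wild-type library 2 (limma diffSplice adjusted p = 0.0757), wild-type library 3 (0.249), sme1 library 1 (0.0710), sme1 library 2 (0.0730) or sme1 library 3 (0.183). It was also lost with a pseudocount of 0.1 TPM (limma diffSplice adjusted p = 0.0998) and with transcripts from 0.1 TPM (0.0608). PTB2 passed when the test per gene was an F test (limma diffSplice adjusted p = 0.0489).

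Related genes moved in both directions around the 5. Of 9 other glycine-rich RNA-binding protein genes 8 were tested, and 7 rose and 1 fell, where 47.3% of all genes tested were higher and 20% lower, and the median log2 change was 0.61 against 0.22 for all genes. GR-RBP3, known from RNA editing in mitochondria, rose from 5.52 ± 0.370 to 15.98 ± 0.856 TPM, GR-RBP5 from 32.0 ± 1.12 to 63.0 ± 3.02 TPM and GR-RBP2, a mitochondrial protein known from the cold response, from 114.8 ± 1.60 to 219.3 ± 16.75 TPM (SD, n = 3 each; limma adjusted p = 2.59e-05, 3.72e-05 and 5.82e-05). The 1 that fell was ATRZ-1A, a zinc-finger glycine-rich protein, from 17.3 to 11.35 TPM (limma adjusted p = 0.00372), named after its value was seen. After either rescaling 5 rose and 1 fell, where over all genes 32% were higher and 35.3% lower by median of ratios and 30.4% and 36.3% by quantile normalization.

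Of 22 genes for hnRNP-like and oligouridylate-binding proteins, nuclear and cytoplasmic RNA binders with motifs like those of the PTB family, 10 rose and 2 fell, with a median of 0.14. The share that rose is near the 47.3% of all genes, and the median lies below that of all genes. After median-of-ratios scaling 3 rose and 8 fell, and after quantile normalization 6 and 7. RBP45A rose from 37.7 ± 0.539 to 59.95 ± 0.260 TPM, RBP47C' from 16.9 ± 0.783 to 24.8 ± 1.19 TPM and UBP1A from 72.6 ± 2.43 to 100.8 ± 4.76 TPM (SD, n = 3 each; limma adjusted p = 5.21e-05, 0.000423 and 0.000435), and these 3 passed in the same direction after both scalings.

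Of 11 genes for nonsense-mediated decay and cap-binding proteins, which act on transcripts with early stops or on capped ends, 6 rose and none fell (limma) on the deposited scale, nor was any lower at an unadjusted p under 0.05, and the median was 0.15. The share that rose is again near the 47.3% of all genes, and the median is below 0.22. After median-of-ratios scaling none rose and 6 fell, and after quantile normalization 5 rose and 3 fell, so no direction of the list held across scalings. The smallest adjusted p were those of AT2G39260, from 16.1 ± 0.416 to 21.0 ± 0.893 TPM, of LBA1, the helicase UPF1, from 27.4 ± 2.20 to 36.9 ± 1.35 TPM, and of EIF4A-III, a core protein of the exon junction complex, from 68.7 ± 3.22 to 82.2 ± 1.56 TPM (SD, n = 3 each; limma adjusted p = 0.00146, 0.00206 and 0.00511). None of the 3 passed after median-of-ratios scaling, where EIF4A-III changed by -0.01.

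Of 12 clock genes, which set the daily rhythm that GRP7 follows, 6 rose and 4 fell, with a median of 0.56, beside 47.3% higher and 20% lower over all genes. RVE8 rose from 17.35 ± 2.96 to 46.1 ± 5.80 TPM and CCA1 from 41.25 ± 5.02 to 82.8 ± 8.02 TPM, both of which peak around dawn, while PRR5, which peaks later in the day, fell from 26.3 ± 1.49 to 12.2 ± 1.98 TPM (SD, n = 3 each; limma adjusted p = 0.000199, 0.000278 and 0.000269). All 3 passed in the same direction after both scalings. Genes that peak later than dawn were not all lower: PRR3 went from 2.91 to 5.91 TPM and ELF4 from 2.73 to 7.66 TPM, both past the threshold (limma adjusted p = 0.000344 and 0.00211) and both named after their values were seen. The part of the clock genes in the fall of GRP7 was not tested.

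**Figure D5:**
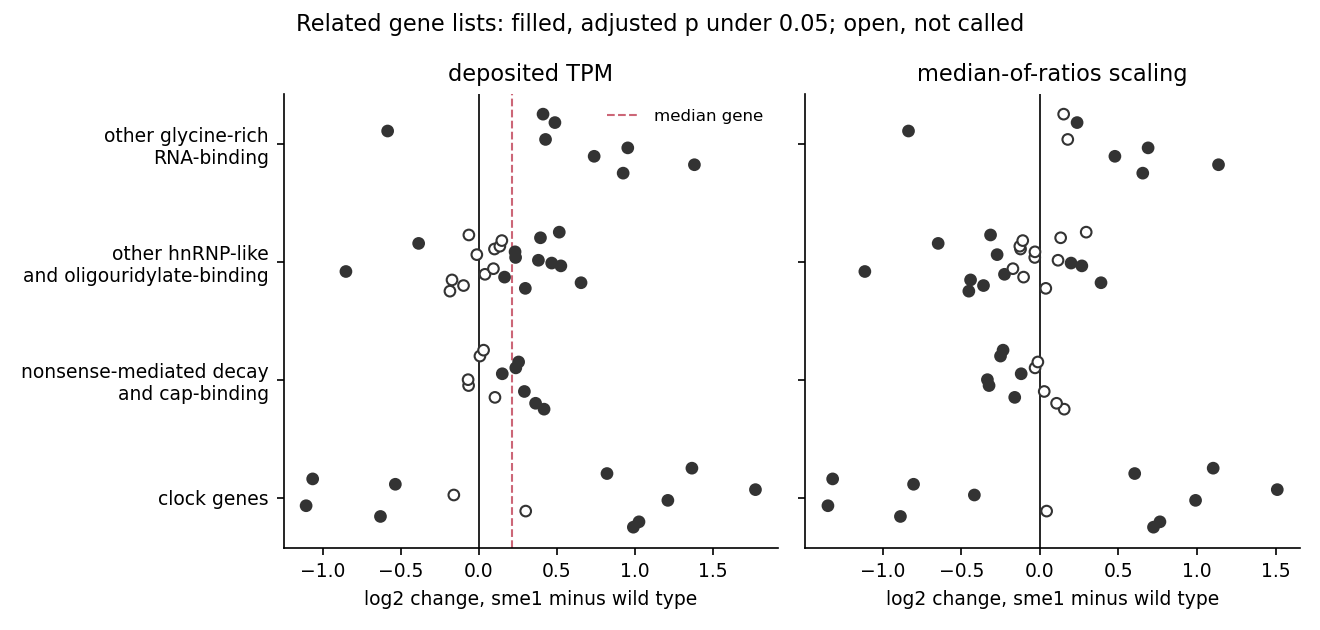
Log2 change of each gene in the 4 related lists, on the deposited TPM (left) and after median-of-ratios scaling (right), filled where the limma adjusted p is under 0.05, with the median gene at 0.22 as a dashed line. The clock genes spread to both sides on both scales, while the nonsense-mediated decay list moves from 6 higher to 6 lower.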

How the data were processed

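RNA of 6 shoot libraries, 3 wild type and 3 sme1, was analysed from TPM per gene and per transcript deposited by the authors. Per the submitters' processing notes STAR 2.5.2b and kallisto 0.43.0 were used, without their roles; per the labels' protocols the kit was stranded and reads were paired. The depth per library is unknown, since TPM keep none, and no counting interval is given. The authors' annotation holds 59448 Araport11 and 16761 scallop transcripts and names no build; 99.44% of its 141522 nuclear introns had GT or GC and AG ends on TAIR10.1. Gene TPM equalled the sum of transcripts within 0.01.

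Fits used limma 3.58.1 in R 4.3.3 over the whole tables and adjusted p-values by Benjamini-Hochberg (threshold 0.05). Gene levels were log2(TPM + 1) with a mean of at least 1 TPM. Shares were log2 ratios of TPM sums with 0.1 TPM added, for sums of at least 2 TPM and mean shares of 1% or more for transcripts and 2% or more for events, and early stops were read from the RefSeq start codon. The fits were tested on simulated data. Alternatives were rescaling, pseudocounts, filters, a replicate block, reference transcripts only, other early-stop rules and leaving out each library. The members and lists were chosen with earlier results of these data known. Named were all 5 genes, their transcripts of 1% or more with values per library for the most abundant, the 2 most alike genes for each, SME1, and up to 3 list members with the smallest adjusted p.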

Additional observations from a re-analysis of the deposited data

How the results depend on the processing

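Scaling moved levels most. Median-of-ratios scaling gave log2 changes of 0.0026 for GRP8, -0.34 for PTB2, -0.28 for PTB3 and -0.013 for EIF4A-III, and quantile normalization gave -0.21 for PTB2. Among hnRNP-like genes the scalings gave 3 and 6 higher and 8 and 7 lower, and among nonsense-mediated decay genes 0 higher and 6 lower and, by quantile normalization, 3 lower. Leaving out 1 library at a time gave log2 changes of 0.23 to 0.35 for GRP8, -0.23 to -0.17 for PTB1 and -0.047 to 0.024 for PTB3, and adjusted p from 0.015 to 0.249 for the usage of GRP7. It gave 2 to 4 lower hnRNP-like genes, 4 without wild-type library 3. It also turned the sign of AT1G43190.2 (-0.13 to 0.79), AT1G43190.3 (-1.18 to 0.02), AT3G01150.4 (-0.18 to 0.070), AT5G53180.2 (-0.16 to 0.61), AT5G53180.5 (-1.25 to 0.67), TCONS_00033429 (-0.29 to 0.11), the PTB2 exon of 58 bases (-0.18 to 0.59), the PTB2 early-stop ratio (-0.11 to 0.48) and the full splicing of PTB2 (-6.12 to 1.59 points), none of which was called. The spliced share of GRP7 stayed 8.16 to 9.25 points higher. Calls over all genes fell from 454 to between 155 and 280 transcripts, from 618 to between 20 and 109 events, from 204 to between 17 and 64 early-stop genes, and from 2176 to between 1326 and 1911 genes by usage. Adding 0.5 TPM gave 1903 transcripts, 1930 events and 574 early-stop genes; a mean of at least 10 TPM gave 684 transcripts and 1291 events; no minimum gave 346 events; reference transcripts only gave 180 transcripts and 29 early-stop genes. Adding a 3' UTR over 350 bases turned the GRP7 early-stop ratio to 0.28. The usage of GRP7 was 0.0998 with a pseudocount of 0.1 and 0.0608 with transcripts of at least 0.1 TPM, and that of PTB2 was 0.0489 by the F test. With the replicate number as a replicate block, limma called no transcript, event or early-stop gene (0 each, with 6572, 5048 and 1370 at an unadjusted p under 0.05), and the usage of GRP7 had an adjusted p of 0.0522. Same-numbered libraries deviated together with correlations of 0.017, 0.056 and 0.032, too low to pair them, although each was the highest for its number. The cause of these changes was not tested. Across 278 values for 24 member transcripts and 110 for 10 member events under the alternatives, none passed. Those 10 events had an unadjusted p under 0.05 or lay at an intron or exon followed above. The other tested member events are not part of this count. The unknown depth limits low transcripts most.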
